A study of Mus musculus with 16 samples.

Results

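Potassium channel genes were examined in RNA-Seq counts from the dorsal hippocampus of male C57Bl6/J mice. The members were all protein-coding genes of the count table whose symbol begins with Kcn in the GENCODE annotation, except Kcne2 and Kcnj13, which mark the choroid plexus. This gave 92 genes out of 35328, of which 81 passed the filter on low counts and were tested among 17830 genes. The other 11 (Kcna10, Kcna7, Kcne1, Kcnj1, Kcnj15, Kcnk15, Kcnk16, Kcnk18, Kcnk7, Kcnmb3 and Kcnv2) had too few counts, and Kcnmb3 had none in any library. There were 4 groups of 4 libraries. Home cage water mice (HC_water) drank water and rested in the home cage. Home cage caffeine mice (HC_Caffeine) had caffeine at 0.3 g/L in their drinking water for 2 weeks, starting at 8 to 9 weeks of age. Learning water (MWM_water) and learning caffeine mice (MWM_Caffeine) had the same drinks and were trained for 3 days in the Morris water maze, a pool in which a hidden platform is found by spatial memory, with tissue taken 1 hour after the last session. Home cage mice did not swim, so learning and the swimming and handling that come with it cannot be told apart. In bulk tissue, fewer cells of a type and less RNA per cell cannot be told apart either.

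Potassium channels let potassium leave or enter the cell and so set the resting potential, the shape of the action potential and how often a neuron fires. Voltage-gated (Kv) channels are tetramers that open on depolarization. Kv1, Kv2, Kv3 and Kv4 subunits carry delayed rectifier and A-type currents, Kv7 subunits the M-current that muscarinic receptors suppress, and the EAG family slower currents. Calcium-activated (KCa), inward rectifier (Kir) and 2-pore domain (K2P) channels respond to calcium, conduct best near rest, and leak, respectively. Auxiliary subunits such as Kvβ (Kcnab), KChIP (Kcnip) and KCNE (Kcne) change how the pore-forming subunits open and reach the membrane.

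Few of these genes were called with learning. Averaged over water and caffeine mice, 8 of the 81 tested members were called with learning, 5 higher and 3 lower. Kcnh1, Kcnq5, Kcng2 and Kcnma1 were among those that rose, and Kcna4, Kcnj4 and Kcns1 fell. Every one of these changes was smaller than 0.4 on the log2 scale, and at this threshold 14.5% of all tested genes were called. The members' own share was therefore not above that of genes in general. No member passed the test for caffeine, at rest or after learning, where 0% of all tested genes did.

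The promoters of 4 of the called genes are shown to let the sequences of 2 that rose, Kcnh1 and Kcnma1, be set beside those of 2 that fell, Kcna4 and Kcnj4. They are RefSeq windows of build GRCm38.p6, 250 bases before to 50 after a transcript start. The start used for Kcnma1, at 24004205, lies inside the gene as annotated in GENCODE, which begins at 24014491 on its strand. That window may therefore not be the main promoter. The capitals mark GC boxes (GGGCGG), the short cAMP response element (TGACG) and the CCAAT box (CCAAT), on either strand. The windows are chr1:192190527-192190826 (+ strand) for Kcnh1, chr14:24004156-24004455 (- strand) for Kcnma1, chr2:107290339-107290638 (+ strand) for Kcna4 and chr15:79505192-79505491 (- strand) for Kcnj4.
Kcnh1: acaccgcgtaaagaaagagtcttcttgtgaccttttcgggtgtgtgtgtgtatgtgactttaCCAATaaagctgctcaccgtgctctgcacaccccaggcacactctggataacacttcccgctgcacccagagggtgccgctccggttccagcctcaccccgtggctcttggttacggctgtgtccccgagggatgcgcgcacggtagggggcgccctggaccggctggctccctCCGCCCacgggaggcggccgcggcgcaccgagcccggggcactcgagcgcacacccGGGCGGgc
Kcnma1: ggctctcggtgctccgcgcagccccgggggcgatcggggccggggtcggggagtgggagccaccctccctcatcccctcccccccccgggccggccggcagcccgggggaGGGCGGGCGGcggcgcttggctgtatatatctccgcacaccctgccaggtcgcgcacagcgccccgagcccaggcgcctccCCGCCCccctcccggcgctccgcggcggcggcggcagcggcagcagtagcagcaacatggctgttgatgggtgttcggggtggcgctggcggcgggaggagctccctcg
Kcna4: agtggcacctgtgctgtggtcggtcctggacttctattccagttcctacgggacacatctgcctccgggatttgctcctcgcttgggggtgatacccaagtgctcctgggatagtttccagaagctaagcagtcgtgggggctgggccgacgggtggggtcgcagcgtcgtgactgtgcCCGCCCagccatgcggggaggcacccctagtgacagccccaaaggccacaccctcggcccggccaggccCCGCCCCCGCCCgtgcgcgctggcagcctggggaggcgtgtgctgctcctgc
Kcnj4: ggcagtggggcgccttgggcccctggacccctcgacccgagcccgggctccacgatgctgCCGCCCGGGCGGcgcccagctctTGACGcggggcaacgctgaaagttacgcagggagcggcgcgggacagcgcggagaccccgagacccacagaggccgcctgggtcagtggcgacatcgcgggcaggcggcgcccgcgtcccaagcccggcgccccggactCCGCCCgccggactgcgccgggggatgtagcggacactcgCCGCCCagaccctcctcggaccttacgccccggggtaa

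All 4 windows held GC boxes, which occur in 35.7% of the 32851 promoter windows of the reference and in 48.4% of the 91 windows of members. The longer runs of capitals are 2 GC boxes that overlap in Kcnma1 and lie end to end in Kcna4 and Kcnj4. The short element TGACG, a motif of the activity-dependent factor CREB, was found once, in Kcnj4, and is in 20.8% of all windows. The full element TGACGTCA, which contains the short one, was in none of the 4, in 0 of the 91 windows of members and in 1.79% of all. The AP-1 motif TGANTCA was in none of the 4 and in 7.81% of all windows. The EGR motif GCGTGGGCG was likewise in none of the 4 and in 0.612% of all, and the TATA box TATAAA in none of the 4 and in 13.6% of all. The CCAAT box was found once, in Kcnh1, and is in 37.4% of all windows. Windows for 67 of the 92 members were found. The windows of Kcnq5, which rose, and Kcns1, which fell, are not printed: Kcnq5 held none of these motifs, and Kcns1 held 2 GC boxes and no other. GC boxes were thus found in genes of both directions, but not in every called gene.

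Per library, 23078094 to 49949281 reads were counted on genes, and the members took 0.584 to 0.629% of them. Levels below are CPM, that is counts scaled to a common library size by the TMM method. Some libraries stood apart. The 8 choroid plexus markers summed to 576 to 3110 CPM in home cage water mice, 445 to 914 in HC_Caffeine, 380 to 864 in MWM_water and 285 to 452 in MWM_Caffeine. All 8, among them the excluded genes Kcne2 and Kcnj13, were called lower with learning over both treatments. The highest sum was in home cage water replicate 20. The 5 oligodendrocyte markers summed to 4017 to 7498 CPM in 15 libraries and to 9827 in learning water replicate 24. Home cage caffeine replicate 17 had the highest mitochondrial share, 4.50%, against 3.23 to 3.89% in the others. The hippocampal fields were present in every library. The 3 CA1 markers summed to 311 to 487 CPM in home cage water and 337 to 454 in home cage caffeine mice, and to 268 to 375 in learning water and 312 to 386 in learning caffeine mice. Of these, 1 of 3 was called lower with learning over both treatments. The 3 CA3 markers summed to 721 to 999 and 592 to 944 CPM in the home cage groups and to 945 to 1126 and 944 to 1155 in the learning groups, with 1 of 3 called higher. It was Nptx1 (log2 fold change 0.25, adjusted p = 0.089), which makes up most of the sum in every library. Iyd had 0.079 (adjusted p = 0.797) and Bok 0.059 (adjusted p = 0.809). Some markers of other cells were also called lower, where 6.71% of all tested genes were called lower over both treatments. Over both treatments, 1 of 5 astrocyte, 2 of 5 microglia, 1 of 4 endothelial, 2 of 6 pericyte and smooth muscle and 2 of 5 striatum and cortex markers were called, all lower, and no marker of the excitatory neuron, dentate granule, interneuron, oligodendrocyte, oligodendrocyte precursor or thalamus lists was called. In caffeine mice alone, where 2.13% of all tested genes were called lower, the astrocyte gene Gfap fell by 0.43 on the log2 scale (adjusted p = 0.010). The microglia genes Cx3cr1 and C1qa fell by 0.25 (adjusted p = 0.043) and 0.29 (adjusted p = 0.073). The other markers of these lists were not called and differed in direction. Their log2 fold changes were -0.32 for Aqp4, -0.094 for Gja1, 0.13 for Aldh1l1 and 0.079 for Slc1a3. Among the microglia markers they were -0.050 for P2ry12, 0.074 for Tmem119 and -0.089 for Csf1r. In water mice alone, 4 of 8 choroid plexus markers and 1 of 5 striatum and cortex markers were called, all lower. The choroid plexus markers called were Ttr, Folr1, Kcne2 and Kcnj13. Kcne2 fell by 2.17 on the log2 scale (adjusted p = 0.043) and Kcnj13 by 2.06 (adjusted p = 0.085). Both are Kcn genes that were left out of the members because they mark this tissue. Of all tested genes, 0.331% were called lower in water mice. The microglia sum was 272 to 310 CPM in HC_water, 293 to 316 in HC_Caffeine, 273 to 301 in MWM_water and 259 to 305 in MWM_Caffeine, and the astrocyte sum 1509 to 1713, 1520 to 1778, 1509 to 1719 and 1459 to 1671. In the same order the endothelial sum was 148 to 156, 129 to 173, 127 to 146 and 132 to 168 CPM, the pericyte and smooth muscle sum 197 to 223, 215 to 242, 191 to 211 and 194 to 231, and the striatum and cortex sum 96.6 to 145, 96.4 to 146, 71.3 to 98.4 and 88.9 to 114. None of these markers was at 0, and their part in the results below was not tested.

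The levels of the members spanned more than 3 orders of magnitude. To compare genes, CPM was divided by the total length of a gene's exons in kilobases (CPM per kb). Of the tested members, 29 had a mean over the 16 libraries of at least 10 CPM per kb and 17 were under 1. The coefficient of variation over libraries ranged from 5.50% to 50.7%, with a median of 13.99%.

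**Figure D1:**
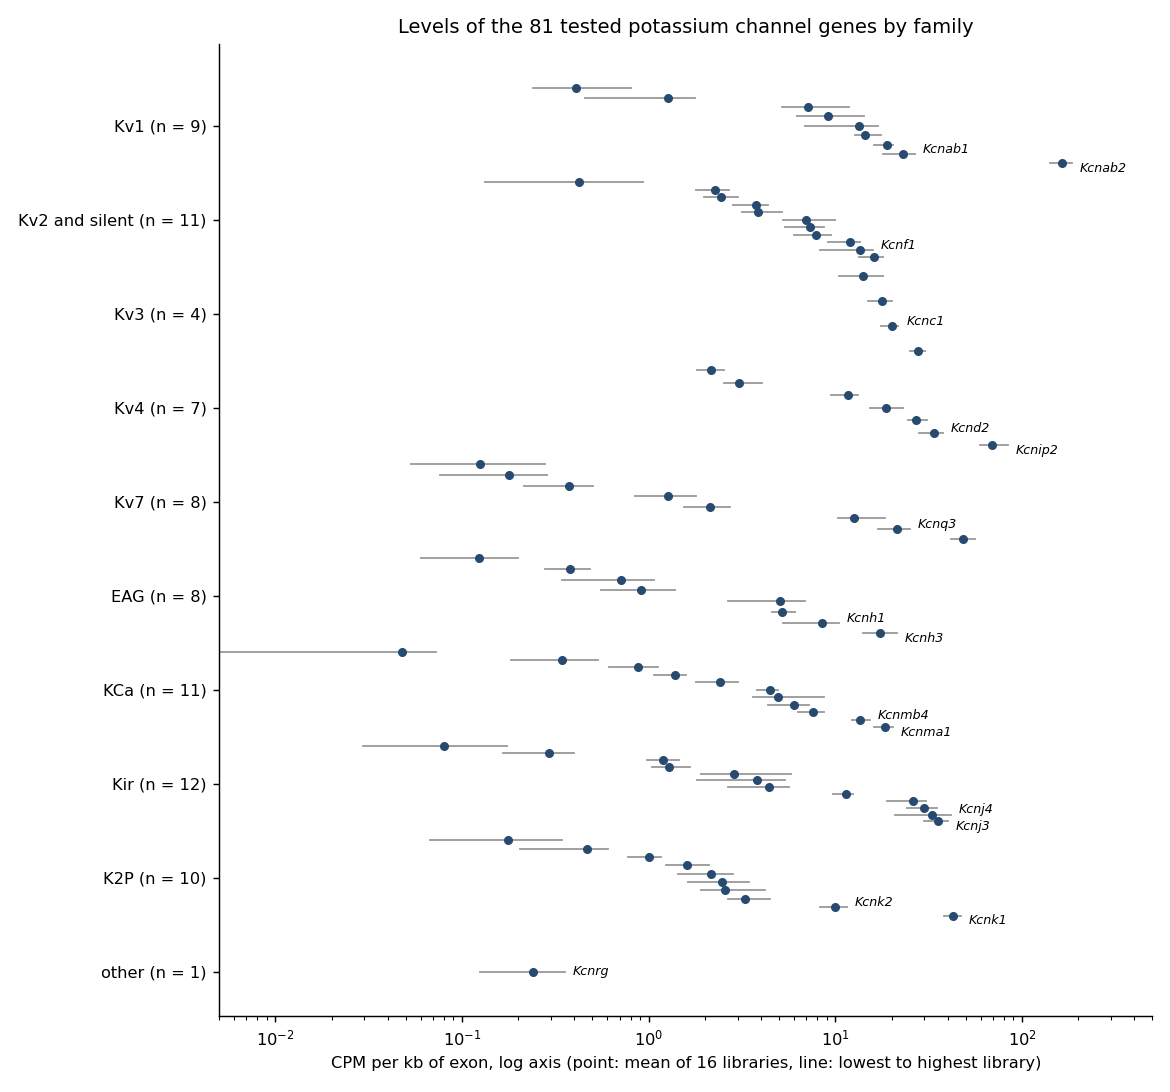
Levels of the 81 tested members by family, in CPM per kb of exon on a log axis. Each point is the mean of the 16 libraries and each line runs from the lowest to the highest library; selected high members of each family are named, and Kcnab2, at 164 CPM per kb, lies to the right of all others.

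The highest member was Kcnab2, which encodes Kvβ2, a subunit of Kv1 channels, with 164 ± 11.3 CPM per kb (SD over 16 libraries). It shares exon sequence with another gene on the same strand, so its counts are uncertain. The Kv1 family otherwise reached at most 23.02 ± 2.16 CPM per kb, for Kcnab1 (Kvβ1). Next came Kcnip2 (KChIP2), a calcium sensor that binds Kv4 channels, with 69.2 ± 6.07 CPM per kb. Its partner Kcnd2 (Kv4.2), which carries the dendritic A-type current of pyramidal cells, had 33.7 ± 2.98.

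In the M-current family, Kcnq3 (Kv7.3) had 21.5 ± 1.90 CPM per kb. Among leak channels, Kcnk1 (TWIK-1) had 42.6 ± 3.27 CPM per kb and Kcnk2 (TREK-1) 9.97 ± 0.955. Among inward rectifiers, Kcnj3 (GIRK1), which opens on G protein signals, had 35.4 ± 2.85 and Kcnj4 (Kir2.3) 33.1 ± 5.41 CPM per kb, which differ by less than the spread between libraries. Among the Kv3 channels of fast-spiking neurons, Kcnc1 had 20.0 ± 1.18 CPM per kb.

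The calcium- and voltage-activated BK channel gene Kcnma1 had 18.5 ± 1.15 CPM per kb, and the gene for its neuronal β4 subunit, Kcnmb4, 13.6 ± 0.988. In the EAG family Kcnh3 had 17.3 ± 2.05 and Kcnh1 8.52 ± 1.24 CPM per kb. Kcnf1, a subunit that is silent alone and modifies Kv2 channels, had 13.6 ± 1.94. Kcnrg, a soluble regulator of channel assembly, had 0.241 ± 0.0683 CPM per kb.

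The first comparison asked how learning changed the members in water mice, with 4 libraries against 4. No member passed an adjusted p of 0.1 in edgeR's quasi-likelihood test, where 0.97% of all tested genes did, 0.639% higher and 0.331% lower. DESeq2 called none of the members as well. The choroid plexus genes Kcne2 and Kcnj13, which are not counted as members, were called lower by edgeR in this comparison. At an unadjusted p under 0.05 there were 4 members, 2 higher and 2 lower, which is 4.94% of those tested against 11.8% of all genes. The median log2 fold change of the members was -0.0053, beside -0.0055 for all genes.

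The 5 members of smallest p in that comparison are given by their values. Kcnip3 (KChIP3, also known as calsenilin and as the transcriptional repressor DREAM) had 99.8, 101, 107 and 102 CPM in home cage water mice and 89.2, 95.7, 88.1 and 87.9 in learning water mice. The groups did not overlap, and the log2 fold change was -0.18 (SE 0.063, adjusted p = 0.241). Here and below, genes were picked by their p from these same values, so groups without overlap add no support. Kcnq5 had a log2 fold change of 0.27 (SE 0.11, adjusted p = 0.350), which was 0.13 without learning water replicate 24 (adjusted p = 0.576). Kcnh3, a pore-forming EAG subunit, had 106 ± 11.6 CPM at rest and 90.3 ± 9.43 after learning (adjusted p = 0.391). Kcne4, an auxiliary subunit that inhibits some Kv channels, and Kcnh8 were near the detection limit, with 0.767 ± 0.211 against 1.08 ± 0.0798 CPM (adjusted p = 0.386) and 0.652 ± 0.249 against 0.443 ± 0.136 CPM (adjusted p = 0.459), respectively (n = 4 each).

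The second comparison asked the same in caffeine mice. Of the 81 members, 3 were called, 2 higher, among them Kcnma1, and Kcna4 lower, where 5.28% of all tested genes were called, 3.16% higher and 2.13% lower. At an unadjusted p under 0.05 there were 14 members, 6 higher and 8 lower, or 17.3% against 18.8% of all genes. The median log2 fold change was 0.0033 for the members and -0.012 for all genes. The count of 3 was 1 without home cage caffeine replicate 9 or 17 or learning caffeine replicate 22, 0 without learning caffeine replicate 30 and 6 without learning water replicate 24. In these fits the share of all genes called moved as well, to 4.11%, 2.25%, 3.20%, 2.12% and 6.84%, in that order. The count was 0 when only the 8 caffeine libraries were fitted, where 3.58% of all genes were called.

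Kcnma1 had 298, 284, 298 and 275 CPM in home cage caffeine mice and 328, 307, 326 and 336 in learning caffeine mice, so the groups did not overlap. The log2 fold change was 0.17 (SE 0.049, adjusted p = 0.078). In water mice the same gene had 307, 326, 322 and 309 CPM at rest and 308, 335, 323 and 347 after learning, with a log2 fold change of 0.053 (SE 0.049, adjusted p = 0.698). The home cage caffeine libraries are thus the low ones among the 4 groups, and they enter both the learning comparison in caffeine mice and the caffeine comparison at rest. The difference between the learning effects was 0.11 (95% interval -0.031 to 0.26, adjusted p = 1.0).

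The increase of Kcnma1 in caffeine mice lost its call without home cage caffeine replicate 9 or 17 or learning caffeine replicate 22, 30 or 40 (adjusted p 0.142 to 0.178). With the correction for exon length and GC content described below, the log2 fold change was 0.068 (adjusted p = 0.411).

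Kcna4 encodes Kv1.4, a rapidly inactivating A-type channel of axons and terminals. Its levels were 39.9, 33.9, 57.2 and 32.3 CPM in home cage caffeine mice and 27.6, 30.5, 26.3 and 32.3 in learning caffeine mice. Replicate 14 of the home cage group was the highest of all 16 libraries, and the groups overlapped by a small margin. The log2 fold change was -0.49 (SE 0.15, adjusted p = 0.099). This lies just inside the threshold, and the call was kept only without home cage caffeine replicate 9 or 17 or learning water replicate 24, the other 13 removals giving adjusted p of 0.104 to 0.241. Without home cage caffeine replicate 14 the log2 fold change was -0.27 (adjusted p = 0.204).

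Below these, Kcnk2 and Kcng2 had the smallest p among members not called in caffeine mice. Kcnk2, the mechanically and lipid-gated leak channel TREK-1, had 57.2, 51.9, 52.8 and 52.4 CPM at rest and 41.1, 41.7, 46.9 and 51.5 after learning under caffeine, without overlap. The log2 fold change was -0.24 (SE 0.079, adjusted p = 0.112).

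**Figure D2:**
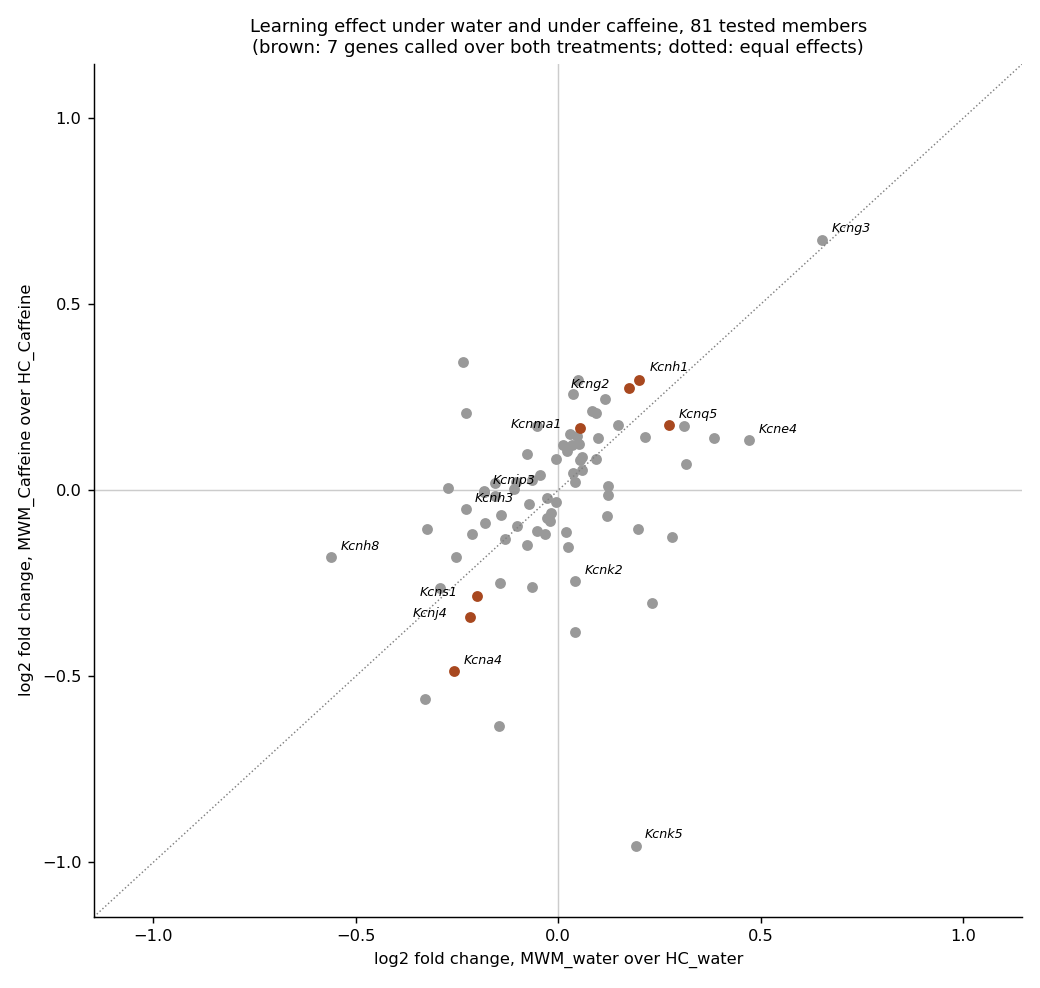
Log2 fold change with learning in water mice (horizontal) and in caffeine mice (vertical) for the 81 tested members, 1 point per gene. The 7 genes in brown, which were called over both treatments, lie in the lower left or upper right quadrant, and Kcnk5 is the lowest point; Kcng3, at the upper right, was not called.

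The 2 learning comparisons share no library, so the directions can be set side by side. Of the 81 members, 60 (74.1%) had the same sign in water and in caffeine mice, beside 70.4% of all tested genes, and Pearson's r of the log2 fold changes was 0.409 over the members and 0.371 over all genes. Genes are not independent replicates and these values carry no test. All 4 Kv3 genes were positive in both comparisons, and none was called. Values lay between 0.037 and 0.060 in water mice and between 0.022 and 0.12 in caffeine mice. The median SE of the family was 0.072 in each comparison. The family was singled out by its signs, which carry no test.

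Averaging the learning effect over both treatments, with 8 libraries against 8, gave the 8 calls, 5 higher and 3 lower. Of all tested genes 7.81% were called higher and 6.71% lower. At an unadjusted p under 0.05 there were 15 members, or 18.5%, against 25.5% of all genes, and the median log2 fold change was -0.018 for the members and -0.013 for all genes. No member of Kv3, Kv4 or K2P was called, nor was Kcnrg. In all 8 genes the home cage and the learning libraries overlapped.

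**Figure D3:**
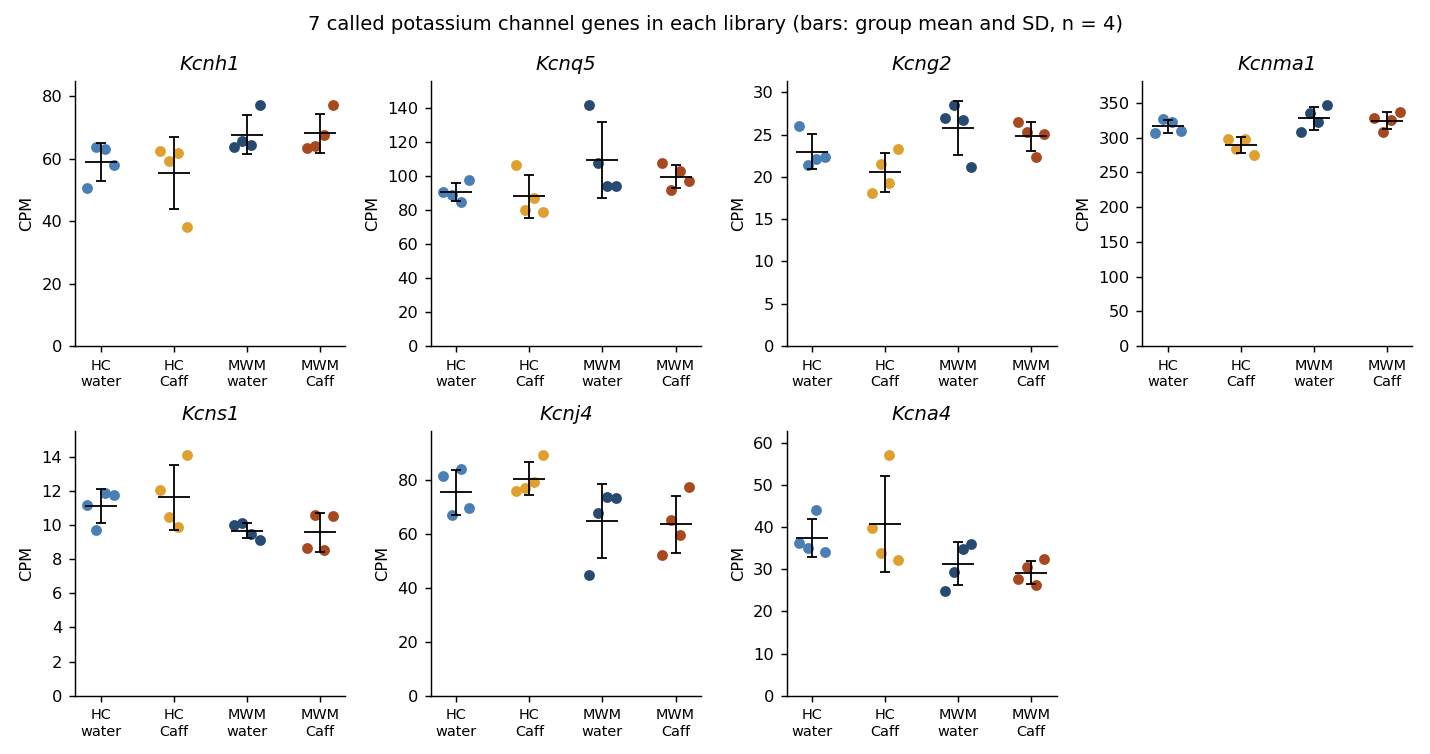
CPM of 7 called members in each of the 16 libraries, ordered from the most increased (Kcnh1) to the most decreased (Kcna4), with axes that start at 0. Points are libraries and bars are the mean and SD of each group of 4; the home cage and learning points overlap in every panel.

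In the M-current family, Kcnq3 had a log2 fold change of 0.060 (SE 0.054, adjusted p = 0.518). Kcnq5 (Kv7.5, chr1:21398403-21961942, - strand) had 90.5, 88.9, 85.1 and 97.9 CPM in home cage water and 107, 80.3, 87.2 and 79.2 in home cage caffeine mice. Trained mice had 142, 108, 94.5 and 94.2 CPM in water and 108, 91.9, 103 and 97.0 in caffeine mice. The value of 142 is from learning water replicate 24, the library with the highest oligodendrocyte marker sum. Kcnq5 rose by a log2 fold change of 0.23 (SE 0.081, adjusted p = 0.092), and the adjusted p was 0.106 to 0.159 without home cage water replicate 6 or 11, home cage caffeine replicate 9, 14 or 17, learning water replicate 24 or 33, or learning caffeine replicate 22, 30 or 40.

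Kcnh1 (chr1:192190774-192510159, + strand) encodes Kv10.1, the founding member of the EAG family. It had 50.7, 63.8, 63.2 and 57.9 CPM in home cage water and 62.4, 59.2, 61.7 and 38.2 in home cage caffeine mice. Trained mice had 63.7, 65.6, 64.4 and 77.0 CPM in water and 63.4, 64.1, 67.5 and 77.1 in caffeine mice. The learning libraries lay close together apart from the highest of each group, and home cage caffeine replicate 17 was the lowest of all. Kcnh1 rose by a log2 fold change of 0.25 (SE 0.087, adjusted p = 0.085). The call was lost (adjusted p 0.102 to 0.160) without home cage water replicate 6 or 20, learning water replicate 33, 36 or 38, or learning caffeine replicate 30 or 40.

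Kcng2 and Kcns1 encode Kv6.2 and Kv9.1, subunits that form no channel alone but join Kv2 subunits and change their gating, and they moved in opposite directions. Kcng2 had 26.0, 21.3, 22.2 and 22.3 CPM in home cage water and 18.04, 21.5, 19.2 and 23.3 in home cage caffeine mice. Trained mice had 26.9, 28.5, 26.7 and 21.2 CPM in water and 26.4, 25.3, 22.4 and 25.1 in caffeine mice. It rose by a log2 fold change of 0.22 (SE 0.068, adjusted p = 0.053), and without learning water replicate 33 the adjusted p was 0.1003. An exon of D330025C20Rik overlaps it on the other strand.

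Kcns1 (chr2:164163619-164171113, - strand) had 11.2, 9.72, 11.9 and 11.8 CPM in home cage water and 12.1, 10.5, 9.88 and 14.1 in home cage caffeine mice. Trained mice had 9.98, 10.1, 9.49 and 9.12 CPM in water and 8.64, 10.6, 8.57 and 10.6 in caffeine mice. It fell by 0.24 on the log2 scale (SE 0.078, adjusted p = 0.064). The call was lost (adjusted p 0.108 to 0.135) without home cage water replicate 6, 11 or 20, home cage caffeine replicate 2 or 17, learning water replicate 36 or 38, or learning caffeine replicate 22 or 30. Kcnb2, a Kv2 gene, was not called.

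Kcnma1 (chr14:23289431-24014491, - strand) rose by a log2 fold change of 0.11 over both treatments (SE 0.035, adjusted p = 0.059). The adjusted p was 0.1004 to 0.107 without home cage water replicate 20, learning water replicate 38 or learning caffeine replicate 40. Of the 10 other tested KCa genes, among them the subunit gene Kcnmb4 (44.9 ± 4.31, 47.0 ± 3.92, 44.2 ± 3.34 and 44.5 ± 1.5 CPM in the HC_water, HC_Caffeine, MWM_water and MWM_Caffeine groups), none was called.

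Kcna4 (chr2:107290639-107298502, + strand) had 36.1, 35.0, 44.0 and 34.2 CPM in home cage water mice and 25.0, 29.4, 34.8 and 36.02 in learning water mice. With the caffeine libraries given above, it fell by 0.37 on the log2 scale (SE 0.11, adjusted p = 0.043), the largest change among the called members. Without home cage water replicate 11 the fall was 0.31 and the adjusted p 0.103. The other Kv1 genes were not called.

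Kcnj4 (chr15:79483714-79505241, - strand), a strong inward rectifier of forebrain neurons, had 81.5, 67.1, 84.0 and 69.7 CPM in home cage water and 76.2, 77.2, 79.4 and 89.5 in home cage caffeine mice. Trained mice had 44.9, 68.0, 73.9 and 73.5 CPM in water and 52.4, 65.3, 59.6 and 77.6 in caffeine mice. The lowest value again came from learning water replicate 24. Kcnj4 fell by 0.28 on the log2 scale (SE 0.096, adjusted p = 0.083). The call was lost (adjusted p 0.101 to 0.183) without home cage water replicate 6, 11 or 20, home cage caffeine replicate 2, 9 or 17, learning water replicate 33, or learning caffeine replicate 22, 27 or 30.

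With learning water replicate 24, home cage water replicate 20 and home cage caffeine replicate 17 all left out, 5 members were called over both treatments, 2 higher and 3 lower, against 9.60% of all genes. Kcna4, Kcng2 and Kcnma1 were among them, with log2 fold changes of -0.39, 0.25 and 0.11. The others were Kcnab1 and Kcnj2, both lower. These libraries were chosen after the data had been seen.

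The learning effect moved with gene length. Over all genes whose log2 CPM averaged 1 or more, the median log2 fold change over both treatments went from -0.084 in the quintile with the shortest exons to 0.065 in the quintile with the longest. The exons of the increased members Kcnma1, Kcnq5 and Kcnh1 total 16976, 7689 and 7331 bases, against a median of 4557 over the tested members. Those of the decreased members Kcna4, Kcns1 and Kcnj4 total 4833, 2712 and 2152 bases. Kcng2, with 2989 bases, is the exception among the increased genes, and Kcna4, above the median, is the exception among the decreased ones. When each library was adjusted for its trend with exon length and GC content, 5 members were called, 2 higher and 3 lower, where 12.2% of all genes were called. Kcna4 and Kcng2 stayed, with log2 fold changes of -0.39 (adjusted p = 0.027) and 0.28 (adjusted p = 0.0042). Kcnma1 had 0.023 (adjusted p = 0.675), Kcnh1 0.22 (adjusted p = 0.123) and Kcnq5 0.19 (adjusted p = 0.187). Kcns1 had -0.18 (adjusted p = 0.116) and Kcnj4 -0.19 (adjusted p = 0.313). The newly called members were Kcnip2, higher, and Kcnab1 and Kcnj2, lower.

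**Figure D4:**
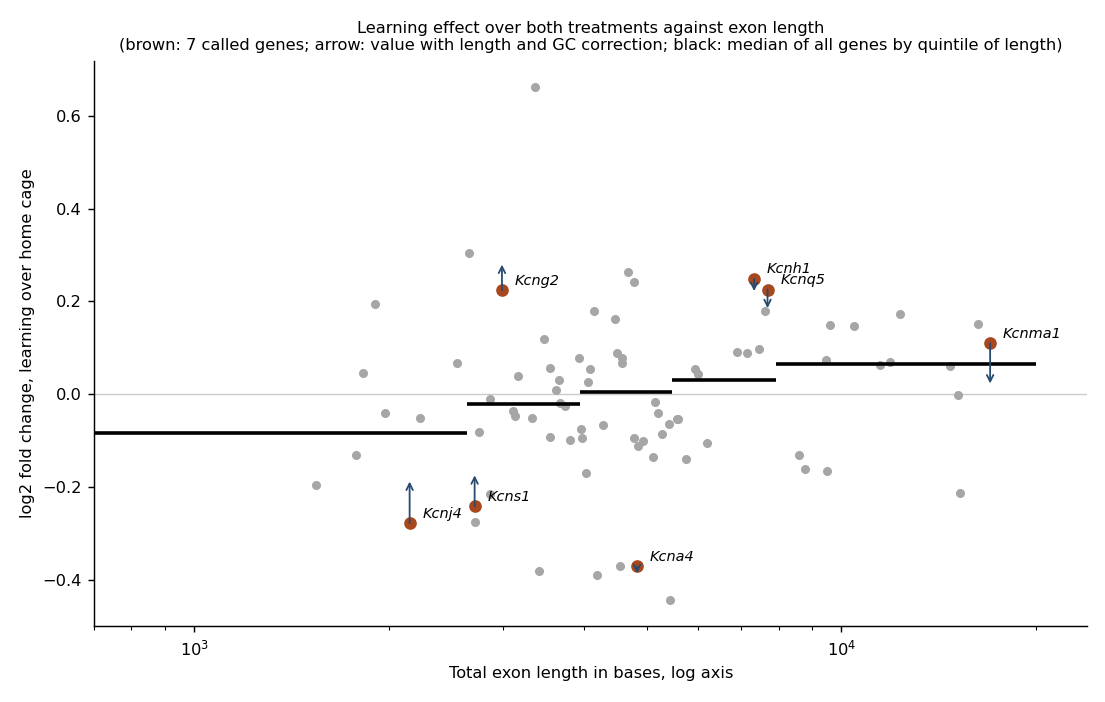
Log2 fold change with learning over both treatments against total exon length (log axis) for the 81 tested members. Brown points are 7 called members, arrows lead to their values after the length and GC correction, and black lines are the medians of all genes in each quintile of length, which run from -0.084 to 0.065.

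Channel partners outside the Kcn symbols were read from a list of 16 genes, of which 14 were tested. In the 2 learning comparisons by treatment 0 of the 14 were called, where 0.97% of all tested genes in water and 5.28% in caffeine mice were. Over both treatments 1 of the 14 was called, where 14.5% of all tested genes were. It was Ank3, which was higher and encodes ankyrin-G, the scaffold that holds Kv7 channels at the axon initial segment. It had 357, 456, 430 and 364 CPM in HC_water, 404, 389, 424 and 305 in HC_Caffeine, 412, 447, 457 and 489 in MWM_water and 447, 420, 429 and 442 in MWM_Caffeine. The log2 fold change was 0.18 (SE 0.065, adjusted p = 0.096), just inside the threshold. The lowest value, 305 CPM, was from home cage caffeine replicate 17. Whether the call of Ank3 holds with libraries left out or with the length and GC correction was not tested. The Kv4 partner Dpp6 had a log2 fold change of 0.085 (SE 0.039, adjusted p = 0.188). The partner Lrrc55 had a log2 fold change of -0.26 (SE 0.11, adjusted p = 0.139), and neither was called.

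Caffeine against water at rest called none of the 81 members, and 0% of all tested genes, and DESeq2 also called none of the members. At an unadjusted p under 0.05 there were 2 members, both lower, or 2.47% against 3.57% of all genes, and the median log2 fold change was -0.028 beside -0.0031. Kcnma1 (values above) was lower in all 4 home cage caffeine libraries than in any home cage water library, with a log2 fold change of -0.13 (SE 0.049, adjusted p = 0.997), or -0.071 with the length and GC correction. Kcnq3 had 312, 371, 345 and 294 CPM in home cage water and 287, 315, 309 and 250 in home cage caffeine mice, which overlapped, with a log2 fold change of -0.19 (SE 0.077, adjusted p = 0.997), or -0.12 without home cage caffeine replicate 17.

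Kcnk5 (TASK-2), an alkaline-activated leak channel, had 0.516, 0.414, 0.551 and 0.591 CPM in home cage water and 0.897, 1.16, 0.738 and 0.670 in home cage caffeine mice. These groups did not overlap, but they rest on 13 to 37 counts per library, and the log2 fold change of 0.71 had an SE of 0.35 (adjusted p = 0.997). Kcnk2 and Kcne4 had log2 fold changes of 0.15 (SE 0.080) and 0.38 (SE 0.21), both with an adjusted p of 0.997.

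After learning, caffeine again called none of the members and 0% of all genes, and DESeq2 called none of the members. At an unadjusted p under 0.05 there were 2 members, 1 in each direction, or 2.47% against 3.93% of all genes, and the median log2 fold change was 0.011 beside -0.0043. Kcnj16 (Kir5.1), which pairs with Kcnj10 in astrocytes, had 22.2, 19.6, 17.97 and 20.9 CPM in learning water and 10.5, 14.7, 20.9 and 17.1 in learning caffeine mice. The groups overlapped, with a log2 fold change of -0.35 (SE 0.16, adjusted p = 0.999), or -0.19 without learning caffeine replicate 22. Kcnq1 had 0.366, 0.309, 0.467 and 0.358 CPM in learning water and 0.986, 0.835, 0.441 and 0.491 in learning caffeine mice, from 11 to 39 counts per library. Its log2 fold change was 0.86 (SE 0.40, adjusted p = 0.999), and it overlaps the antisense transcript Kcnq1ot1. Kcnk2, Kcnk10 and Kcnip3 followed with -0.14 (SE 0.079), -0.23 (SE 0.15) and 0.098 (SE 0.063), each with an adjusted p of 0.999.

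**Figure D5:**
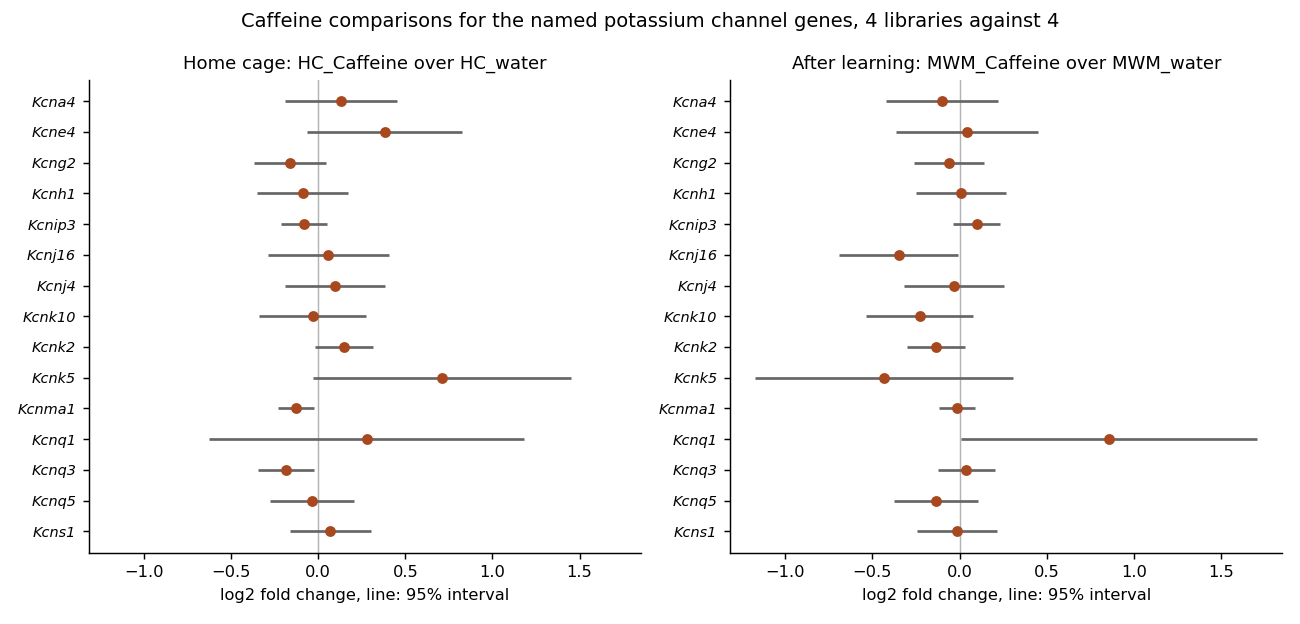
Log2 fold change with caffeine at rest (left) and after learning (right) for 7 members called with learning and those of smallest p in the caffeine comparisons, with 95% intervals from the fit. The widest intervals belong to Kcnk5 and Kcnq1, and the intervals of Kcnma1 and Kcnq3 at rest and of Kcnj16 and Kcnq1 after learning leave out 0 before adjustment.

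For 7 genes called with learning over both treatments, the 95% intervals from the fit bound the caffeine effect at rest. At rest the interval was -0.23 to -0.027 for Kcnma1, -0.37 to 0.045 for Kcng2, -0.35 to 0.17 for Kcnh1 and -0.28 to 0.21 for Kcnq5. It was -0.19 to 0.45 for Kcna4, -0.16 to 0.30 for Kcns1 and -0.19 to 0.38 for Kcnj4. The caffeine comparisons at rest and after learning share no library, and 43 of the 81 members (53.1%) had the same sign in both, beside 53.9% of all genes.

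The last comparison tested whether the learning response itself differed between caffeine and water mice. No member and 0% of all genes were called, and DESeq2 called no member. Of the members, 2 had an unadjusted p under 0.05, both negative, or 2.47% against 3.63% of all genes. The median difference was 0.028 beside 0.0024. Kcnk2 had a log2 difference of -0.29 (SE 0.11, adjusted p = 1.0): the learning effect was 0.042 in water mice, with 52.3, 50.7, 44.8 and 45.7 CPM at rest and 45.3, 46.5, 53.7 and 53.7 after learning, and -0.24 in caffeine mice. Kcnk5 had a difference of -1.15 (SE 0.50, adjusted p = 1.0), from 0.19 in water and -0.96 in caffeine mice, and it was -0.63 without learning water replicate 24. Kcnq3 and Kcnip3 had differences of 0.23 (SE 0.11) and 0.18 (SE 0.089), each with an adjusted p of 1.0.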

How the data were processed

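Total RNA of the dorsal hippocampus was sequenced from 16 libraries. The authors made strand-specific mRNA libraries, read 50 bases single-end, aligned them to the mm10 build using STAR and Bowtie 2, and counted unique reads on Ensembl release 90 genes with HTSeq-count 0.6.1p1 in union mode. Whether the counting used strand is not given in the sources used here, and 25 members share exon sequence with a gene on the other strand. They deposited raw read counts, which were used as they are. For testing, edgeR 4.0.16 in R 4.3.3 was used, with TMM scaling, filterByExpr with the 4 groups, 1 mean per group over all 16 libraries, its quasi-likelihood test and adjustment after Benjamini and Hochberg over all 17830 tested genes. Genes were called at an adjusted p under 0.1, the threshold used in the study. Fold changes are log2, learning over home cage or caffeine over water. SE is the standard error of that fit. Symbols, lengths and positions came from GENCODE M21 (mm10). Replicates are separate samples, and the labels do not say more, so p-values measure the spread between these samples. Nothing in the labels gives a batch. With 23078094 to 49949281 counts per library, the median SE of a tested member was 0.13 on the log2 scale for learning in water mice.

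The genes named were the members called in any comparison, the members of smallest p up to 5 in a comparison with fewer than 5 calls, the 2 highest members of each family per kilobase of exon, and called partners. The members, families and lists were chosen with earlier results of these data known. Alternatives were DESeq2 1.42.0 size factors or its Wald test, at least 1 count in total or 10 in each, a threshold of 0.05 on the adjusted p, robust fitting, a length and GC correction, the 8 libraries of a comparison, each library left out, and, added after the data had been seen, 3 libraries left out together. Tested on simulated data for learning in caffeine mice over 17830 genes, edgeR made 15 false calls. It recovered 57% of genes changed by 0.5 and 79% of those changed by 1 on the log2 scale. Smaller changes were not simulated, nor were shifts of whole libraries with gene length or cell markers. The recovery and false calls under those conditions were thus not tested. Promoter sequences are from RefSeq; Kcng2 is named only. Some members that the rules above would name are not reported here; they stay in all counts, shares and medians.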

Additional observations from a re-analysis of the deposited data

Results flagged for a closer look

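In 76 groups of 4 libraries (the 19 members called or of smallest p, in 4 groups each), 5 values stood far from the other 3, with a gap to the nearest value beyond Dixon's 95% critical share of the group's range. Chance alone gives about 1 in 20. Kcnh1 was at 38.2 CPM in home cage caffeine replicate 17, against 59.2 to 62.4 in the others, and at 77.0 CPM in learning water replicate 38, against 63.7 to 65.6. Kcnh3 was at 84.0 CPM in learning caffeine replicate 22, against 103 to 105. Kcnip3 was at 109 CPM in home cage caffeine replicate 17, against 91.9 to 93.9, and at 95.7 CPM in learning water replicate 33, against 87.9 to 89.2. Home cage caffeine replicate 17 also had the highest mitochondrial share, and the part of that in its values was not tested. Without it, the learning effect of Kcnh1 over both treatments stayed called.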

How the results depend on the processing

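No paired analysis was possible because no replicate number is shared between groups. The counts of 0 called members in learning against home cage in water mice, in both caffeine comparisons and in the difference between responses were 0 under every alternative tried. For learning in caffeine mice the count of 3 became 5 with DESeq2's Wald test, 0 at an adjusted p under 0.05 and 0 with the 8 libraries of the comparison, and ranged from 0 to 6 with 1 library left out. The share of all genes went from 5.28% to 4.68%, 2.52% and 3.58% in that order, and to between 2.12% and 6.84% with 1 library left out. For learning over both treatments the count of 8 became 2 at an adjusted p under 0.05, 5 with the length and GC correction and 5 with 3 libraries left out, and ranged from 4 to 10 with 1 library left out. The share of all genes called moved with it, from 14.5% to 7.76%, 12.2% and 9.60% in that order, and to between 9.90% and 17.7% with 1 library left out. The low counts of 4 came without home cage water replicate 6 or 20 or learning caffeine replicate 30, and counts of 5 without home cage water replicate 11, learning water replicate 33 or learning caffeine replicate 40. Over 33 named values and 809 refits none changed sign, 93 lost a call and 9 gained one. Only the 3 values called in caffeine mice and the 8 called over both treatments could lose a call. The 93 are therefore not to be read as a share of the 809. The named values were chosen by call or smallest p, so the kept signs are no test. The median log2 fold changes of the members moved by less than the spread between libraries. The cause of these shifts was not tested. Members near 1 CPM rest on few counts per library; how the recovery of changes varies with level was not tested.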

Other observations

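Kcng3, chosen after its values were seen, encodes another silent subunit that joins Kv2 channels and had the largest log2 fold change with learning over both treatments among the tested members, 0.66 (SE 0.25). Its adjusted p was 0.105, just outside the threshold. It had 0.715, 1.34, 1.38 and 0.994 CPM in HC_water, 1.12, 1.03, 1.73 and 0.446 in HC_Caffeine, 1.35, 1.32, 1.30 and 3.13 in MWM_water and 1.28, 1.54, 1.87 and 2.24 in MWM_Caffeine, from 16 to 96 counts per library. The groups overlapped, and the highest value was in learning water replicate 38.

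Kcnj2 (Kir2.1), also chosen after its values were seen, had a log2 fold change of -0.44 (SE 0.17, adjusted p = 0.117) with learning over both treatments, the lowest of the tested members.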
